A study of Mus musculus with 12 samples.

Results

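Transcripts of 7 B cell genes, Cd79a, Cd79b, Fcmr, Ms4a1, Cd22, Pou2af1 and Pax5, were read in mouse liver with and without the liver carcinogen diethylnitrosamine (DEN). They were taken by gene symbol, as a set picked with values from these same libraries in view, and make up 7 of the 14944 genes listed in any of the 4 tables. RNA sequencing covered 12 livers in 4 groups of 3 mice: labelled Otud3 knockout with DEN, WT with DEN, labelled Otud3 knockout without DEN, and WT without DEN. All were littermates on C57BL/6, and the DEN mice were male. DEN mice received one intraperitoneal dose of 25 mg/kg on day 15 after birth and were killed 30 weeks after it. The labels used here give no age, sex or sham injection for the mice without DEN. A difference in age, sex or handling therefore cannot be told apart from DEN. The series text speaks of liver cancer tissue, the sample labels of liver, and neither says whether a piece held tumour or which part of Otud3 is deleted. In whole liver, more B cells and more of these RNAs per cell cannot be told apart.

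B cells carry a surface immunoglobulin as antigen receptor, which signals through the paired chains Ig-alpha and Ig-beta, encoded by Cd79a and Cd79b. Ms4a1 encodes the membrane protein CD20, Cd22 a sialic acid-binding coreceptor that restrains receptor signalling, and Fcmr the Fc receptor for IgM. Pax5 is the transcription factor that commits cells to the B lineage and is shut off when they become plasma cells, and Pou2af1 is a coactivator of octamer-binding factors that B cells and plasma cells both use. A liver holds few B cells beside its hepatocytes, in the blood of the sinusoids, around portal tracts and in lymphoid clusters that can form in inflamed or tumour-bearing tissue.

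The genes lie on 6 chromosomes (GRCm38.p6, RefSeq): Cd79a at chr7:24897497-24901858, Cd22 at chr7:30865404-30880342, Cd79b at chr11:106311341-106314562, Fcmr at chr1:130865777-130880790, Ms4a1 at chr19:11249679-11266149, Pou2af1 at chr9:51213690-51240079 and Pax5 at chr4:44524748-44710694. RefSeq promoter windows, 250 bases before and 50 after a transcript start, were at hand for 5 of the 7 (Cd79a, Cd22, Fcmr, Pou2af1 and Pax5). They were searched on both strands for 3 motifs of B lineage factors: the octamer ATGCAAAT, the EBF1 core CCCNNGGG and the E-box CAGGTG, one of the sequences that E2A proteins bind. Windows of Cd79a, Cd22 and Fcmr hold a match and are shown for that reason, 5′ to 3′ along the gene's strand with the matches in capitals. They lie at chr7:24897247-24897546 (plus strand), chr7:30878979-30879278 (minus strand, a start inside the annotated span of Cd22) and chr1:130865527-130865826 (plus strand).
Cd79a: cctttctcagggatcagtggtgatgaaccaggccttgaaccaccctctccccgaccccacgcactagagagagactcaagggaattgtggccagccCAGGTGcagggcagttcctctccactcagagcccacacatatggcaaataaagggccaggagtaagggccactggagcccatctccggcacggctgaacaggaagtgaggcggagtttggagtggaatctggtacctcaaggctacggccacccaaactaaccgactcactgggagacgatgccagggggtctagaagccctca
Cd22: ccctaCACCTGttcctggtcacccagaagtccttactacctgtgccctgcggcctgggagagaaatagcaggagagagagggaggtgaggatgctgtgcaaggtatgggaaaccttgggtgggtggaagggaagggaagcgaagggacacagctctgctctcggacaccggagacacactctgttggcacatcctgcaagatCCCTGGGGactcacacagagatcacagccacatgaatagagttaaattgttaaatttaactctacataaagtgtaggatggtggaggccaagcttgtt
Fcmr: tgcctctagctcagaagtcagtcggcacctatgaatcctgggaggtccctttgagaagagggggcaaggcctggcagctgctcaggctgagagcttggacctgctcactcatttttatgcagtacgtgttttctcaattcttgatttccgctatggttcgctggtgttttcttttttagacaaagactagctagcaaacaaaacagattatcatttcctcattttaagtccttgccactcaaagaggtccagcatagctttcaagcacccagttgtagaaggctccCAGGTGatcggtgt
In Cd79a the E-box begins at base -154, counted from the transcript start. In Cd22 it reads in reverse at -245, and the EBF1 core begins at -48. In Fcmr the E-box begins at +36, past the start. The E-box was thus in 3 of 5 windows and in 18.8% of the 15100 windows of genes in the tables, the EBF1 core in 1 of 5 and 17.8%, and the octamer in 0 of 5 and 1.44%. The windows of Pou2af1 and Pax5 hold no match. Only exact matches were searched, so a window without one may hold a near match, such as ctcaaggg for the EBF1 core in Cd79a. These counts describe letters in the windows and no binding was measured.

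Otud3, the gene the knockout label names, and the make-up of the libraries were read before any comparison. Total counts ran from 29668861 to 31111765 per library. Otud3 stood at 5.15, 3.25 and 3.90 TPM in the labelled-knockout DEN libraries, against 6.16, 4.70 and 4.85 TPM in WT with DEN, and these ranges overlap. Its counts in the same libraries, 290, 406 and 407 against 560, 431 and 488, do not overlap. Of all genes, 16.6% did not overlap between these groups in TPM. Its labelled knockout over WT log2 fold change was -0.43 ± 0.27 (SE, edgeR adjusted p = 0.581) with DEN and -0.23 ± 0.27 (edgeR adjusted p = 1) without, so these values do not check the genotype and the groups are called labelled knockout. Hepatocyte genes, of which 9 of 10 were listed in every table, summed to 58851.4 to 127405 TPM. DEN WT replicate 2 held the highest TPM of all 12 libraries for 7510 of 13371 genes in all tables, and at least 5 times every other DEN library for 414 of them. DEN labelled knockout replicate 1 did so for 31 genes, among them 4 of the B cell genes, and each of the other 4 DEN libraries for 0. The main values that rest on these 2 libraries are therefore also given without them.

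The B cell genes were at low levels, between 0.01 and 3.02 TPM (a length-scaled transcript share), in every library that lists them but DEN labelled knockout replicate 1, which held 0.60 to 19.54 TPM. That mouse alone carried 61.8% (Cd22) to 72.3% (Pax5) of each gene's TPM summed over the 6 DEN libraries. The next highest of all listed libraries was DEN WT replicate 2 for each of the 7 genes, and the ratio between these 2 libraries ran from 4.78 (Cd22) to 7.61 (Fcmr).

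**Figure D1:**
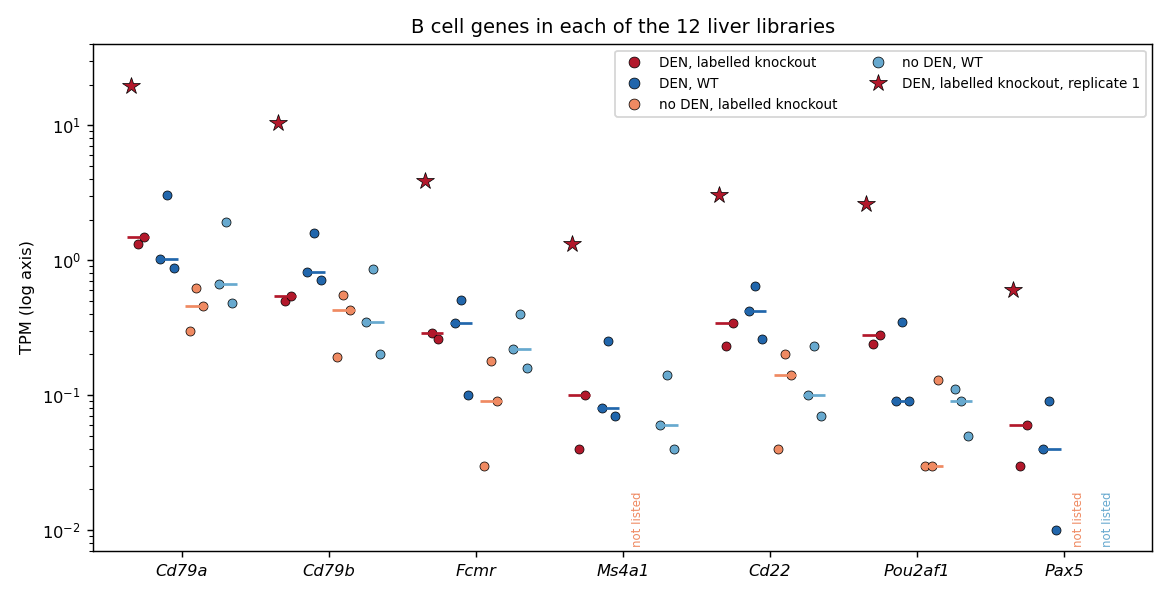
TPM (log axis) of the 7 B cell genes in each library, by group; short lines are group medians and the star is DEN labelled knockout replicate 1. The star lies above every other point for each gene, at 19.54 TPM for Cd79a and 0.60 TPM for Pax5, and genes a table leaves out are marked as not listed.

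The receptor chains were the most abundant. Cd79a was at 19.54, 1.31 and 1.49 TPM in labelled knockouts with DEN and at 1.02, 3.02 and 0.88 TPM in WT with DEN. Without DEN it was at 0.30, 0.62 and 0.46 TPM in labelled knockouts and at 0.67, 1.92 and 0.48 TPM in WT. The high library rests on 361 counts (95% exact Poisson interval 325 to 400), the lowest on 6 (2.2 to 13.1), and intervals of this kind cover counting error only. WT mice with and without DEN overlapped, while all 3 labelled knockouts with DEN lay above all 3 without. The share of all genes that split in this way within a genotype was not counted. Such splits, here and for the genes below, are therefore given as levels only.
Cd79b was at 10.37, 0.50 and 0.54 TPM in labelled knockouts with DEN, against 0.82, 1.59 and 0.71 TPM in WT with DEN. Its levels without DEN were 0.19, 0.55 and 0.43 TPM in labelled knockouts and 0.35, 0.86 and 0.20 TPM in WT. Apart from the one high mouse, the labelled knockouts with DEN lay below every WT mouse with DEN and within the range of labelled knockouts without it. Cd79a exceeded Cd79b in TPM in each of the 12 libraries, by 1.07 to 2.76 times, and by 1.88 times in the high library.

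Among the surface proteins, Fcmr was at 3.88, 0.29 and 0.26 TPM in labelled knockouts with DEN and at 0.34, 0.51 and 0.10 TPM in WT with DEN. Labelled knockouts without DEN held 0.03, 0.18 and 0.09 TPM of it, and WT without DEN 0.22, 0.40 and 0.16 TPM. DEN and no DEN overlapped in WT and not in labelled knockouts, where the lowest library had 1 count.
Cd22 was at 3.06, 0.23 and 0.34 TPM in labelled knockouts with DEN, against 0.42, 0.64 and 0.26 TPM in WT with DEN. Values without DEN were 0.04, 0.20 and 0.14 TPM in labelled knockouts and 0.10, 0.23 and 0.07 TPM in WT. Cd22 was the gene with the smallest share in the high mouse. In TPM it was the only member tested whose 3 libraries with DEN exceeded all 3 without DEN in each genotype. The margins were small: the closest labelled knockouts held 20 counts with DEN and 19 without, and the closest WT mice 22 and 20. In TMM-scaled CPM (counts per 1e+06), labelled knockouts overlapped: replicate 2 with DEN was at 0.61 and replicate 2 without DEN at 0.69. WT mice stayed apart in CPM, at 0.70 in DEN replicate 3 and 0.68 in replicate 2 without DEN.
Ms4a1 was listed in 3 of the 4 tables. It stood at 1.31, 0.04 and 0.10 TPM in labelled knockouts with DEN (90, 3 and 7 counts), at 0.08, 0.25 and 0.07 TPM in WT with DEN and at 0.06, 0.14 and 0.04 TPM in WT without DEN. The table of labelled knockouts without DEN leaves it out. Each table lists only genes with at least 0.01 TPM in all 3 of its libraries, so absence is no measured 0.

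Of the nuclear factors, Pou2af1 was at 2.61, 0.24 and 0.28 TPM in labelled knockouts with DEN and at 0.09, 0.35 and 0.09 TPM in WT with DEN. Without DEN it was at 0.03, 0.03 and 0.13 TPM in labelled knockouts and at 0.11, 0.09 and 0.05 TPM in WT. Its other 2 labelled knockouts with DEN, at 14 and 16 counts, lay above 2 of the 3 WT mice with DEN, at 5 counts each. As with Cd79a, all labelled knockouts with DEN lay above those without, and WT mice with and without DEN overlapped.
Pax5 was listed with DEN alone, at 0.60, 0.03 and 0.06 TPM in labelled knockouts (122, 7 and 12 counts) and at 0.04, 0.09 and 0.01 TPM in WT (8, 16 and 1). Outside the high library its counts are too few to order the mice.

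**Figure D2:**
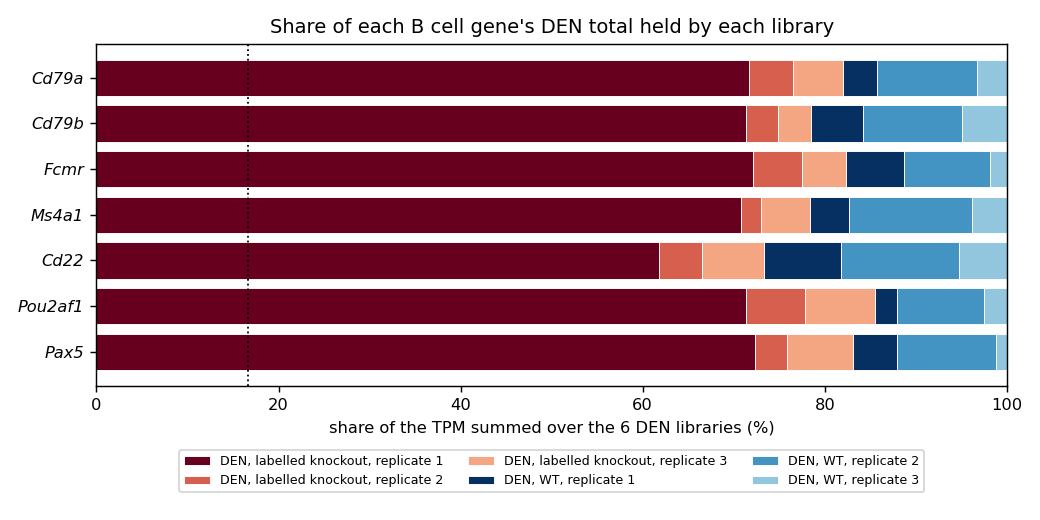
Share (%) of each gene's TPM, summed over the 6 DEN libraries, that each library holds; the dotted line marks an even split. DEN labelled knockout replicate 1 holds between 61.8% and 72.3% of each bar, and DEN WT replicate 2 is the next widest in all 7.

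Summed over the 7 genes, DEN labelled knockout replicate 1 held 70.8% of the DEN total and 87.9% of the labelled-knockout DEN total, at 41.37 TPM against a median of 2.81 TPM in the other 5 DEN libraries. Counted in reads in place of TPM, its shares were 63.1% to 73.5%.  Of the summed TPM of the 5 genes found in every table, Cd79a took 49.5% there, Cd79b 26.3%, Fcmr 9.83%, Cd22 7.75% and Pou2af1 6.61%. Each share lies within the range of the other 11 libraries, which ran from 36.8% to 54.9% for Cd79a and from 6.57% to 15.6% for Cd22. That sum was 39.46, 2.57 and 2.91 TPM in labelled knockouts with DEN and 2.69, 6.11 and 2.04 TPM in WT with DEN. It was 0.59, 1.58 and 1.25 TPM in labelled knockouts without DEN and 1.45, 3.50 and 0.96 TPM in WT without DEN. Replicate 1 of labelled knockouts with DEN ranked highest for 5 of 5 genes, and DEN WT replicate 2 ranked second for 5 of 5. Labelled knockout replicate 1 without DEN was lowest or tied for lowest for 5 of 5.

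**Figure D3:**
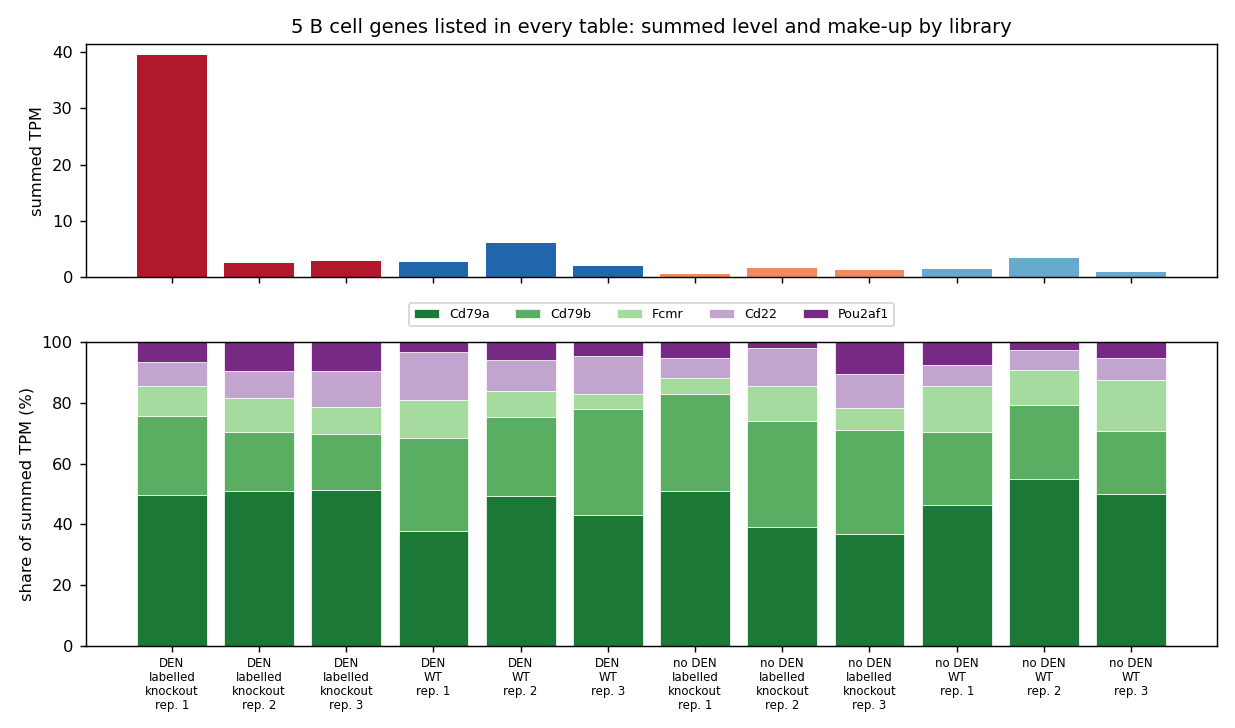
Summed TPM of the 5 B cell genes found in every table (top) and the share of that sum from each gene (bottom), by library. DEN labelled knockout replicate 1 reaches 39.46 TPM against at most 6.11 TPM elsewhere, while its Cd79a share of 49.5% lies inside the range of the others.

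The 5 genes in every table entered a model of all genes, and all 5 passed its filter on low counts, to which the high library contributed; Ms4a1 and Pax5 did not enter. Because the genes were chosen on these values, their fold changes are given as descriptions with no test. Averaged over both genotypes, DEN over no DEN log2 fold changes were 1.92 ± 0.70 (SE) for Cd79a, 1.81 ± 0.75 for Cd79b, 1.65 ± 0.76 for Fcmr, 2.08 ± 0.66 for Cd22 and 2.06 ± 0.72 for Pou2af1. Without DEN labelled knockout replicate 1 they were 0.73 ± 0.39, 0.39 ± 0.37, 0.46 ± 0.46, 1.04 ± 0.40 and 1.07 ± 0.46. Without DEN WT replicate 2 they were 1.67, 1.70, 1.49, 1.997 and 1.71. All 5 were above 0 in each of these fits, and without the high mouse Cd22 and Pou2af1 were the highest. Over all 12909 genes, 2131 (16.5%) passed the threshold in this comparison, an adjusted p under 0.05 by edgeR's quasi-likelihood test, 1085 (8.4%) of them higher and 1046 (8.1%) lower with DEN. Without the high mouse the number over all genes was 893, and without DEN WT replicate 2 it was 3046. The 6 DEN libraries overlapped the 6 without DEN for every one of the 5 genes, where 18.2% of all genes did not overlap. Having the highest TPM in that replicate was shared by 5 of 5 B cell genes and by 9.3% of all genes, and the B cell genes were in part chosen for it.

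The DEN contrast was also taken within each genotype. In labelled knockouts, DEN over no DEN was 3.59 ± 1.04 for Cd79a, 2.87 ± 1.07 for Cd79b, 3.42 ± 1.09 for Fcmr, 2.86 ± 0.94 for Cd22 and 3.56 ± 1.01 for Pou2af1 on the log2 scale. With the high mouse left out it was 1.21 ± 0.59, 0.04 ± 0.57, 1.05 ± 0.71, 0.79 ± 0.60 and 1.60 ± 0.68. In WT the same contrast was 0.25 ± 0.97, 0.75 ± 1.06, -0.13 ± 1.05, 1.29 ± 0.93 and 0.55 ± 1.03, and without DEN WT replicate 2 it was -0.26, 0.53, -0.43, 1.14 and -0.14. The interaction, DEN in labelled knockouts less DEN in WT, was 3.34 ± 1.404 for Cd79a, 2.13 ± 1.49 for Cd79b, 3.54 ± 1.52 for Fcmr, 1.57 ± 1.31 for Cd22 and 3.02 ± 1.46 for Pou2af1. Without the high mouse it was 0.96, -0.70, 1.17, -0.50 and 1.05, and without DEN WT replicate 2 it was 3.85, 2.34, 3.84, 1.72 and 3.71. Over all genes the interaction called 0 (0%) by edgeR, with 842 at an unadjusted p under 0.05, 0 by limma-voom and 13 by DESeq2.

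**Figure D4:**
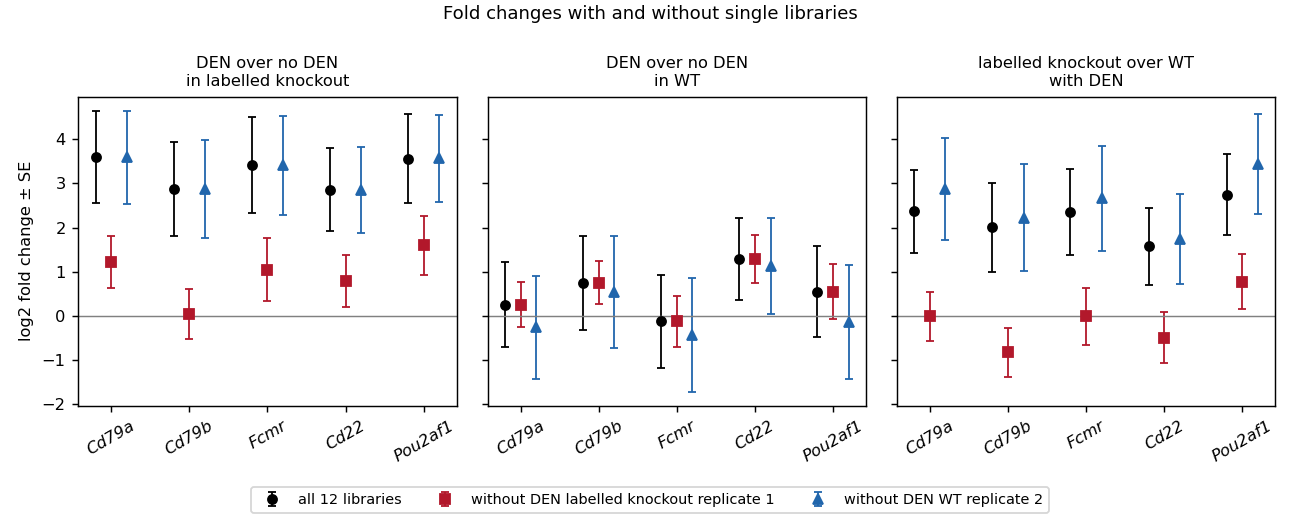
Log2 fold changes ± SE of the 5 B cell genes in every table from the fit of all 12 libraries (black circles), without DEN labelled knockout replicate 1 (red squares) and without DEN WT replicate 2 (blue triangles). In the right panel the labelled knockout over WT values with DEN run from 1.58 to 2.74 with all libraries and from -0.83 to 0.78 without the high mouse.

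With DEN, labelled knockout over WT log2 fold changes were 2.37 ± 0.95 for Cd79a, 2.004 ± 1.002 for Cd79b, 2.35 ± 0.98 for Fcmr, 1.58 ± 0.87 for Cd22 and 2.74 ± 0.92 for Pou2af1. All 5 were lower without DEN labelled knockout replicate 1. Leaving it out gave -0.02 ± 0.56, -0.83 ± 0.55, -0.01 ± 0.64, -0.49 ± 0.58 and 0.78 ± 0.63, below 0 in 4 of 5. Pou2af1 was the exception, with 14 and 16 reads in the other labelled knockouts against 5, 18 and 5 in WT. Without DEN WT replicate 2 they were 2.88, 2.22, 2.66, 1.74 and 3.45. The 3 labelled knockouts overlapped the 3 WT mice for all 5 genes, where 16.6% of all genes did not overlap. This comparison called 0 of all genes (0%) by edgeR, with 1308 at an unadjusted p under 0.05, 0 by limma-voom and 160 by DESeq2. Without DEN, labelled knockout over WT was -0.98 ± 1.04 for Cd79a, -0.12 ± 1.11 for Cd79b, -1.19 ± 1.17 for Fcmr, 0.01 ± 0.98 for Cd22 and -0.27 ± 1.13 for Pou2af1, each about the size of its error or smaller.

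Other genes of the B lineage were read from a list of 23, of which 20 were listed for any group. Of the 13 in every table, 11 were highest in DEN labelled knockout replicate 1, as were 9.3% of all genes. The other 2, Blnk and Cd72, were highest in DEN WT replicate 2. Of 11 tested in the mean DEN comparison, 4 rose and 0 fell, against 8.4% and 8.1% of all genes. The median log2 fold change was 1.29 over the 11 and 0.0057 over all genes. The 4 were the adaptor genes Bank1 (1.81 ± 0.49, edgeR adjusted p = 0.0325) and Blnk (2.58 ± 0.75, edgeR adjusted p = 0.0423), the kinase gene Btk (1.43 ± 0.42, edgeR adjusted p = 0.0438) and Cd72 (0.96 ± 0.26, edgeR adjusted p = 0.0332). Without DEN labelled knockout replicate 1 the number called was 0, with a median of 0.83, in a fit that also called fewer genes overall. Bank1 was then at 1.21 and Btk at 0.87, while Blnk was at 2.32 (edgeR adjusted p = 0.0978) and Cd72 at 0.83 (edgeR adjusted p = 0.0822), close to their values with all libraries. Blnk, at 37.19 TPM in DEN WT replicate 2 against at most 5.16 TPM elsewhere, was at 1.09 without that library, where 4 of 11 were called. The number called was 0 as well with labelled knockout replicate 3 or WT replicate 1 or 3 of the mice without DEN left out, 1 with labelled knockout replicate 1 or 2 of those mice left out and 2 with DEN WT replicate 1 left out. For labelled knockout over WT with DEN, 0 of the 11 passed by edgeR and 3 had an unadjusted p under 0.05. The median log2 fold change of the 11 was 1.44, and -0.19 without the high mouse.
Several B cell genes are listed in some tables alone. Fcer2a, the low-affinity IgE receptor of mature B cells, was at 2.34, 0.14 and 0.21 TPM in labelled knockouts with DEN and at 0.11, 0.29 and 0.24 TPM in WT with DEN. Blk, a B cell kinase gene, was at 1.23, 0.09 and 0.07 TPM in labelled knockouts with DEN and at 0.09, 0.10 and 0.02 TPM in WT with DEN. Ebf1, Cr2 and Bcl11a were also highest in that mouse, at 0.30, 0.28 and 0.51 TPM, against at most 0.11, 0.08 and 0.24 TPM in the other DEN libraries. Vpreb3, known from developing B cells, was not. It was at 1.12, 0.39 and 0.50 TPM in labelled knockouts with DEN, against 1.28, 1.31 and 1.33 TPM in WT with DEN. Tnfrsf13c, the BAFF receptor gene, was left out of both labelled-knockout tables and lay between 0.02 and 0.12 TPM in the 2 WT tables.

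Plasma cells, the antibody-secreting end stage, were read from 5 genes listed in every table. Jchain, which joins polymeric IgM and IgA, was at 5.27, 1.19 and 1.42 TPM in labelled knockouts with DEN and at 1.01, 0.51 and 1.25 TPM in WT with DEN. Mzb1, an endoplasmic reticulum protein of antibody-secreting cells, was at 2.79, 0.93 and 0.78 TPM in labelled knockouts with DEN and at 0.36, 1.45 and 0.53 TPM in WT with DEN. Both were highest in the mouse with the high B cell genes, by smaller ratios. Irf4 was highest there too, at 0.31 TPM against at most 0.19 TPM in the other libraries. Derl3, which takes part in endoplasmic reticulum-associated degradation and was the most abundant of the 5 in most libraries, was not. It was at 4.32, 4.44 and 2.34 TPM in labelled knockouts with DEN, against 18.85, 32.74 and 11.01 TPM in WT with DEN, and its labelled knockout over WT log2 fold change was -2.32 ± 0.68 (edgeR adjusted p = 0.355). Of 4 tested, 1 rose with DEN and 0 fell, against 8.4% and 8.1% of all genes. It was Prdm1, the factor that drives plasma cell fate, at 2.42 ± 0.65 (edgeR adjusted p = 0.0332), with its highest value, 0.84 TPM, in DEN WT replicate 2 and a log2 fold change of 1.56 without that library. It did not pass without DEN labelled knockout replicate 1 (2.29, edgeR adjusted p = 0.078).

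Signalling genes downstream of the antigen receptor are shared with myeloid and other blood cells. Of 15 tested, 6 rose with DEN and 0 fell, against 8.4% and 8.1% of all genes, with a median of 0.97. Plcg2, the phospholipase of the pathway, rose by 1.67 ± 0.41 (edgeR adjusted p = 0.0246), Dapp1, an adaptor, by 1.496 ± 0.40 and the protein kinase C gene Prkcb by 2.07 ± 0.59. Without DEN labelled knockout replicate 1, 3 of 15 rose, with a median of 0.38, and Prkcb was at 1.03. Without DEN WT replicate 2, 5 rose and 1 fell. Leaving out labelled knockout replicate 3 or WT replicate 1 or 3 of the mice without DEN gave 0, leaving out labelled knockout replicate 1 or WT replicate 2 of those mice gave 2, and leaving out their labelled knockout replicate 2 or DEN WT replicate 1 gave 3. Limma-voom called 0. Prkcb was at 3.16, 0.34 and 0.29 TPM in labelled knockouts with DEN and at 0.43, 0.49 and 0.26 TPM in WT with DEN.
Among genes of B cell survival and recruitment, 0 of 6 tested passed by edgeR (1 at an unadjusted p under 0.05), 0 by limma-voom and 1 by DESeq2. Cxcl13, the chemokine that draws B cells through Cxcr5, was at 42.66, 1.70 and 1.04 TPM in labelled knockouts with DEN and at 2.23, 0.45 and 2.39 TPM in WT with DEN. Libraries without DEN held 0.13 to 2.26 TPM. The chemokine was thus high in the same single mouse as the B cell genes, and its log2 fold change with DEN was 1.60 ± 0.93 (edgeR adjusted p = 0.241) with that mouse and -0.12 without it. Its receptor gene Cxcr5 was at 0.71, 0.10 and 0.05 TPM in labelled knockouts with DEN and at 0.07, 0.13 and 0.07 TPM in WT with DEN. Ltb, a lymphotoxin subunit, was at 7.53, 1.35 and 1.12 TPM in labelled knockouts with DEN and at 0.91, 6.43 and 0.88 TPM in WT with DEN, high in both of the libraries that stood apart. Cxcr5 is named after its values were seen.

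Markers of several other immune and blood cell types were also high in DEN labelled knockout replicate 1, where 9.3% of all genes were highest. Dendritic cell genes were highest there for 2 of 9 and NK cell genes for 2 of 5. Of 12 Kupffer cell and macrophage genes, 10 were highest there, and their summed TPM was 1058.62, 300.43 and 259.27 in labelled knockouts with DEN, against 417.28, 232.43 and 305.27 in WT with DEN. Libraries without DEN summed to 100.01 to 171.74 TPM in labelled knockouts and 53.95 to 203.82 TPM in WT. Marco, a scavenger receptor gene, was at 210.84, 4.03 and 2.25 TPM in labelled knockouts with DEN and at 5.2, 0.21 and 10.72 TPM in WT with DEN, while Clec4f, specific to Kupffer cells in mouse, was at 37.11, 42.18 and 36.86 TPM in labelled knockouts with DEN and at 59.73, 12.35 and 39.18 TPM in WT with DEN. Marco and Clec4f thus ordered the DEN mice differently.
Of 12 T cell genes in every table, 11 were highest in that library, with summed TPM of 13.40, 6.88 and 6.07 in labelled knockouts with DEN, against 6.76, 8.88 and 5.28 in WT with DEN. Those 12 summed to 3.41 to 5.38 TPM in labelled knockouts and 3.28 to 5.62 TPM in WT without DEN. Neutrophil genes were highest there for 5 of 5 and summed to 59.92, 4.89 and 6.43 TPM in labelled knockouts with DEN and to 8.26, 45.18 and 7.32 TPM in WT with DEN, with 8.76 to 33.52 TPM in labelled knockouts and 7.55 to 26.56 TPM in WT without DEN. Red cell genes, haemoglobins among them, summed to 3000.01, 992.21 and 955.69 TPM in labelled knockouts with DEN, against 1995.76, 1162.42 and 1149 TPM in WT with DEN. Without DEN they reached 2705.75 TPM in labelled knockouts and 2730.22 TPM in WT, in libraries whose 5 B cell genes summed to 0.59 and 1.45 TPM. Of the 6 red cell genes, 4 were highest in DEN labelled knockout replicate 1, against 9.3% of all genes. A part of blood content in the B cell values was not tested.
Genes of MHC class II presentation, which B cells share with dendritic cells and macrophages, were highest in DEN labelled knockout replicate 1 for 2 of 9 and in DEN WT replicate 2 for 7 of 9. Liver endothelial and hepatocyte genes were highest in DEN labelled knockout replicate 1 for 0 of 10 and 0 of 9. Over all 13371 genes, 7510 were highest in DEN WT replicate 2 and 1244 (9.3%) in DEN labelled knockout replicate 1. Among markers of all the cell types read, the B cell genes had the highest median ratio, 3.35 on the log2 scale of TPM + 0.1, of that library over the median of the other 5 DEN libraries. These genes were chosen with that library in view. The ratio was 2.303 for the other B lineage genes, 2.39 for neutrophil genes, 1.497 for Kupffer cell and macrophage genes and 1.46 for red cell genes. It was 0.90 for T cell, 0.73 for NK cell and 0.24 for dendritic cell genes, and 0.02 for all genes. With DEN, averaged over genotypes, 8.4% of all genes rose and 8.1% fell. Of the lists, 5 of 12 Kupffer cell and macrophage, 1 of 10 T cell, 1 of 4 NK cell and 2 of 7 dendritic cell genes rose. So did 3 of 8 MHC class II, 2 of 8 stellate cell and 9 of 10 endothelial genes, and 1 of 9 hepatocyte genes fell. The T cell and hepatocyte counts are close to the shares of all genes. By edgeR 0 of 5 neutrophil, 0 of 6 red cell and 0 of 6 bile duct genes passed, and likewise 0 of each by DESeq2, by limma-voom and at an unadjusted p under 0.05, while the replicate block called 2 red cell genes. Without DEN labelled knockout replicate 1, 530 of all genes rose, against 1085 with all libraries. In that fit 2 of 12 Kupffer cell and macrophage and 8 of 10 endothelial genes rose, and 0 genes passed in each of the other lists just named. Fold changes of several genes that then missed the threshold hardly moved: Flt3, a dendritic cell receptor gene, was at 1.47 (1.45 with all libraries), Col3a1, a collagen gene of stellate cells, at 1.81 (1.82) and Apoa1, a hepatocyte apolipoprotein gene, at -0.60 (-0.62). Without DEN WT replicate 2, 9 of 12 Kupffer cell and macrophage and 4 of 8 stellate cell genes rose, and 2 of 9 hepatocyte genes fell, while the T cell, NK cell, dendritic cell and MHC class II counts were as with all libraries. Over all single libraries left out, 1 to 9 of the Kupffer cell and macrophage genes were called, with 10 by DESeq2, 8 with library size scaling and 3 by limma-voom. MHC class II genes called were 8 of 8 by DESeq2, with library size scaling and without DEN WT replicate 3, 1 by limma-voom, 5 without WT replicate 2 of the mice without DEN and 0 without any one of the other 5 mice without DEN. Over all alternatives 0 to 2 T cell, 0 to 2 NK cell, 0 to 3 dendritic cell, 0 to 6 stellate cell, 0 to 2 hepatocyte and 7 to 10 endothelial genes were called. The part of these cell markers in the B cell values was not tested.

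**Figure D5:**
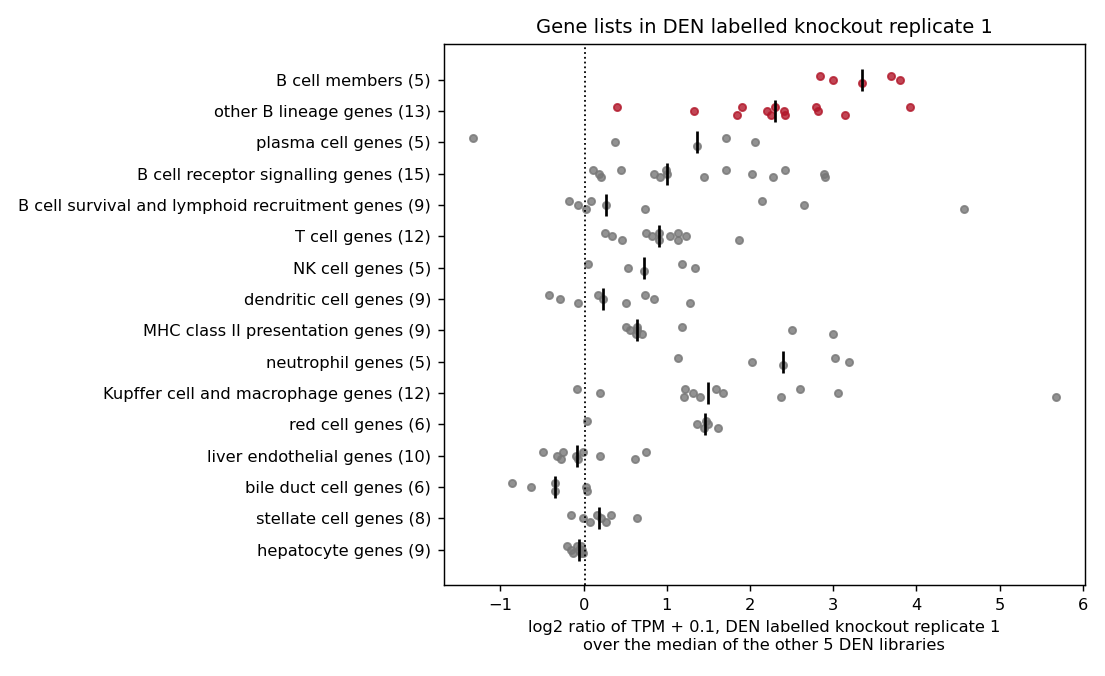
Log2 ratio of TPM + 0.1 in DEN labelled knockout replicate 1 over the median of the other 5 DEN libraries, for each listed gene in every table (points) with list medians (bars); the dotted line is the median of all genes. The B cell genes (median 3.35), neutrophil genes (2.39) and other B lineage genes (2.303) lie farthest right, and hepatocyte genes lie around the median of all genes.

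Of the 13371 genes in all tables, 31 (0.23%) were at least 5 times higher in DEN labelled knockout replicate 1 than in every other DEN library. They held 4 of 5 B cell genes (Cd79a, Cd79b, Fcmr and Pou2af1), which were chosen with that library in view. They also held 3 of 13 other B lineage genes (Siglecg and Cxcr5 among them), 5 genes of other lists and 19 of none. Cd22 was just below the limit of 5 times, at 4.78 times the next library. Named after their values were seen, the 19 include Spic, a transcription factor gene of splenic and iron-recycling macrophages, at 16.82 TPM against at most 1.89 TPM in the other DEN libraries. Acod1, an itaconate-producing enzyme of activated macrophages, was at 2.60 TPM against at most 0.19 TPM, and Btla, a lymphocyte inhibitory receptor, at 1.61 TPM against at most 0.29 TPM.

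The 5 B cell genes varied together across libraries, as far as their low counts show. Pearson r between pairs, on log2 CPM, ran from 0.842 to 0.959 over the 12 libraries and from 0.329 to 0.902 over 11 without the high mouse. These are descriptions, and libraries share their depth and tissue mix. Without that mouse the closest pair was Cd22 with Cd79b (0.902) and the loosest Cd79b with Pou2af1 (0.329). Among the 5 genes most like the mean of the B cell genes over 12 libraries were Asb2 (r = 0.977, Spearman rho = 0.909), Atp2a3 (r = 0.976), Pik3cg (r = 0.957) and Kif3c (r = 0.948). Over 11 libraries the 5 most alike were Atp2a3 (r = 0.954), Kif26a (r = 0.940), Slc25a4 (r = 0.929), Ubd (r = 0.926) and Klb (r = 0.910), so Atp2a3 alone was in both sets.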

How the data were processed

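RNA-seq of 12 mouse livers was read from 4 deposited tables, 1 per group, that give expected counts and TPM per gene and library, per the file headers. The expected counts were estimated by the authors before deposit: in each library 6.58% to 7.39% of the values carry decimals. TPM values as deposited are the authors' length-scaled shares. The submitters' processing notes name RSEM 1.3.1, DESeq2 1.4.5, Bowtie2 2.3.4.3 and HISAT2 2.2.1 with build GRCm38.p6. No source used here gives their roles or the strand setting, so reads of a gene and one overlapping it cannot be told apart. The tables list protein-coding genes with at least 0.01 TPM in all 3 libraries of a group.

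Member and list levels are the authors' TPM. Per-library intervals are exact Poisson at 95%. Counts were rounded, scaled by TMM and filtered with filterByExpr by group (minimum count 10), which left 12909 of the 13371 genes in all tables. The quasi-likelihood test of edgeR 4.0.16 (robust, R 4.3.3) modelled all 12 libraries by group, leaving 8 residual degrees of freedom, with Benjamini-Hochberg adjustment over all genes and a threshold of 0.05. "Rose" and "fell" with an adjusted p mean that a gene passed it. CPM for correlations is per 1e+06 counts on a log2 scale with a prior count of 2. The members and 15 lists were chosen with earlier results of these data known, so members get no test and lists are described by counts and medians. Named genes are the members, Otud3, up to 4 genes per list with the smallest p in the mean DEN comparison, and the 5 most alike, except some that are not reported here; others are marked, or are listed B lineage genes and markers given by level. Within groups, all pairs of libraries differed by more than sampling noise (chi-square 28.8 to 807 per degree of freedom). The p-values set a difference against the spread between these mice within groups. Labels do not say whether mice of a group shared a batch. A batch shared by a group could not be told apart from its DEN or genotype label. The steps were tested on simulated data. Alternatives were DESeq2 1.42.0, limma-voom (limma 3.58.1), RLE and library size scaling, no filter, genes missing from a table set to 0, a replicate block, only the groups compared and leaving out each library. Immunoglobulin heavy and light chain genes of the lists (Ighm, Ighd, Igkc, Iglv1 and Igha) were listed for none of the groups, so none has a value here.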

Additional observations from a re-analysis of the deposited data

How the results depend on the processing

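The 2131 genes called in the mean DEN comparison became 3232 with DESeq2 and 3856 with library size scaling, and 656 to 3046 on leaving out each library. Library size scaling made 93.7% of the calls upward, against 50.9%, and moved the median log2 fold change of all genes to 0.28, against 0.0057, so a direction is relative to the median gene. The 0 calls of labelled knockout over WT with DEN became 160 with DESeq2 and 23 with genes missing from a table set to 0, and those of the interaction 13 and 11. No B cell member was among these 23 and 11. The 35 called genes over the 15 lists became 21 with limma-voom, 58 with library size scaling and 9 to 43 on leaving out each library. The 4 other B lineage genes called became 1 with limma-voom, 1 with the replicate block and 0 to 4 on leaving out each library. Of 480 alternative values of the 5 B cell genes' fold changes, 466 lay within 1 SD of the value reported and 14 did not: 12 without DEN labelled knockout replicate 1 and 2, both of Cd79b, with limma-voom (0.63 for labelled knockout over WT with DEN and 1.55 for DEN in labelled knockouts). The SD is that of log2 CPM within groups, pooled, with the high mouse included, and ran from 1.07 (Pou2af1) to 1.28 (Cd79b). It is wide: Cd79a at 1.92 for DEN, and at 0.73 without that mouse, counts as within it. Fits that leave out a library of neither group compared are among the 480 and could move a value little. Over all genes tested, deviations of same-numbered libraries correlated weakly (18 pairs, r from -0.190 to 0.220, 4 of 12 libraries closest to their own number). With 3 mice per group, these values cannot show whether the numbers pair the mice. Red cell genes summed highest in replicate 1 of each group. With the replicate block, 1863 genes were called for DEN, 24 over the lists, and 0 for each of labelled knockout over WT with DEN and the interaction. With the last 200 bases before the start in place of the whole window, the E-box was in 1 of 5 promoters and 12.9% of all windows. Counts of 1 to 50 per gene outside the high mouse limit how finely the B cell genes order the other libraries.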
